A study of Mus musculus with 6 samples.

Results

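Liver X receptors (LXRs) are nuclear receptors that bind oxysterols and desmosterol, pair with retinoid X receptors (RXRs) on DNA and switch on genes that carry cholesterol out of the cell. In macrophages, from which osteoclasts are formed, their best known targets are the membrane pumps Abca1 and Abcg1, the lipid-carrying apolipoprotein Apoe, and Mylip, a ubiquitin ligase that removes lipoprotein receptors. Both receptors and a group of their targets were followed here: Nr1h3, Nr1h2, Abca1, Abcg1, Apoe, Pltp, Mylip, Lpcat3, Smpdl3a and Arl4c. They were picked by name, with earlier results of these data known. All 10 of the 10 were found by symbol among the 16775 genes of the table.

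Osteoclasts treated with verapamil, a blocker of L-type calcium channels, were set against untreated control osteoclasts. Both groups came from marrow macrophages of WT mice grown in 30 ng/ml M-CSF, and both received 50 ng/ml RANKL and 10% serum for osteoclast formation. The titles give day 5, while the protocol runs to a later day, and neither the dose and timing of verapamil nor the strain, sex or age of the mice is stated. Totals ran between 20202340 and 21494523 estimated reads over the 3 verapamil libraries and the 2 control libraries (replicates 1 and 3). Control replicate 2 was not analysed here. The labels name no batch, animal or culture for a replicate, and each p-value rests on the spread among these libraries alone, which may be technical.

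Verapamil moved these genes by little and in both directions. Pltp, the phospholipid transfer protein, was lower, while Smpdl3a, a secreted phosphodiesterase, and Abcg1 were higher. Neither receptor passed the test, nor did Abca1, Apoe, Mylip, Lpcat3 or Arl4c. In edgeR's quasi-likelihood test with Benjamini-Hochberg adjustment over 12619 genes, 2 of the 10 were called higher at an adjusted p under 0.05, against 9.99% of all tested genes, and 1 was called lower, against 15.4%. Called in either direction were 3 of 10 (30%), against a background of 25.4%, so the share called was near that of all genes. The median log2 fold change of the 10 genes was 0.13, against -0.01 over all tested genes, and their median absolute log2 fold change was 0.28, against 0.34 over all. All 10 genes passed the filter on low counts.

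The control region of Abca1 is shown because it holds the element through which LXR and RXR are known to act on this gene, a direct repeat with a spacer of 4 bases (DR4). The search took 1 of 5 repeat units (GGTCA after A, C or G, or GGTTA after A or G), then 4 bases of any kind, then any of these units again, on both strands. These units were chosen with known LXR elements in mind. They include GGGTTA and CGGTCA, the units of both matches printed below, so finding these matches is not a test. Promoters from RefSeq on GRCm38.p6, running from 250 bases before to 50 bases after each start, were available for 8 of the 10 genes, in 11 versions. A match was found in 1 of these 11 and in 39 of all 32851 promoters (0.119%). The 250 bases before each start are printed 5′ to 3′ on the gene's own strand, with the match in capitals. Of the 3 promoters of Srebf1, the LXR target that drives fatty acid synthesis, 1 is shown beside that of Abca1 since it holds the same kind of match, and the other two hold none.
Abca1, chr4:53159896-53160145, minus strand: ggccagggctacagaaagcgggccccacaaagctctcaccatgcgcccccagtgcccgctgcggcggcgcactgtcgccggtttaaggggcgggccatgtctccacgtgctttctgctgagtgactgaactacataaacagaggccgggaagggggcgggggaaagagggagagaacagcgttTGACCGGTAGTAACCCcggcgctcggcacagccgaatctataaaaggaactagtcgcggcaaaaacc
Srebf1, chr11:60210472-60210721, minus strand: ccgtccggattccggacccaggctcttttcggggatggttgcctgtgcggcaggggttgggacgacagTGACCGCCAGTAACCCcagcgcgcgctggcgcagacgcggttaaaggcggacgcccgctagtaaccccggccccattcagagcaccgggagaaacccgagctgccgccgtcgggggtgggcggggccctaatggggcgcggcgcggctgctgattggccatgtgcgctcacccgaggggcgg
Both matches lie on the strand opposite to the gene, and read on that strand they are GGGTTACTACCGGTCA in Abca1, 67 to 52 bases before the start, and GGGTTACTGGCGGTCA in Srebf1, 182 to 167 bases before it. The Abca1 promoter also holds CACGTG, a palindrome that starts 147 bases before the start and does not overlap the repeat. This hexamer was in 1 of the 11 promoters of these genes and in 7.15% of all promoters. A match is a description of the letters and not a measured binding site.

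A second set of sequences concerns miR-33, a microRNA that lies within Srebf2, the gene of the SREBP2 factor, and is known to repress Abca1. Its mature strand from RefSeq (chr15:82198127-82198147, plus strand, GRCm38.p6) is printed with the seed, bases 2 to 8, in capitals, followed by the stretches of 3′ UTR in which the complement of the seed, CAATGCA, occurs, with the matches in capitals.
mmu-miR-33-5p: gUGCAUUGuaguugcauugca
Abca1, chr4:53033785-53033810, minus strand, GRCm38: ttCAATGCAATGCActtCAATGCAac
Abcg1, chr17:31115000-31115020, plus strand, GRCm38: cgCAATGCAacgCAATGCAga
The longest annotated 3′ UTR of Abca1 held 3 matches, 2 of them overlapping by letters, at bases 133 to 158 of 3156 including 2 flanking bases on each side. That of Abcg1 held 2, and those of the other 8 genes held 0. At least 1 match was found in 7.08% of 20975 genes' 3′ UTRs, and 3 or more in 0.0715%. The microRNA itself was not measured in these libraries. The host gene Srebf2, which was chosen for the place of miR-33 in it, had 179, 185 and 185.5 CPM with verapamil and 91.0 and 113 CPM in controls (log2 0.85, SE 0.121, edgeR adjusted p = 0.00485).

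The receptors come first in the pathway. Nr1h3 encodes LXR alpha, the form known for its high level in macrophages and liver, and lies on chromosome 2 at 91184061 to 91202829 of GRCm38 (Entrez 22259). It was at 27.1, 30.2 and 31.6 CPM in verapamil replicates 1, 2 and 3, and at 29.9 and 25.0 CPM in control replicates 1 and 3 (CPM, counts scaled to a common library size with TMM factors). The groups overlapped. Its log2 fold change was 0.11 (SE 0.132, edgeR adjusted p = 0.562), and it was -0.01 without control replicate 3. Nr1h2 encodes LXR beta, the form found in most tissues, on chromosome 7 at 44549616 to 44553968 (Entrez 22260). It had 84.7, 69.2 and 79.2 CPM with verapamil, and 74.2 and 65.0 CPM in controls. These groups overlapped too (log2 0.16, SE 0.127, edgeR adjusted p = 0.38).

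Nr1h3 was the less abundant receptor in every library. The ratio of Nr1h3 to Nr1h2 counts was 0.32, 0.437 and 0.398 with verapamil and 0.403 and 0.385 in controls. The difference of the log2 ratios, verapamil minus control, was -0.05 (means -1.39 ± 0.232, n = 3, and -1.34 ± 0.0472, n = 2, SD). An exact two-sided permutation test gave p = 1, where the smallest p that 3 against 2 libraries allow is 0.2. The difference turned to 0.08 without verapamil replicate 1.

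Abca1, which loads cholesterol onto lipid-poor apolipoproteins, lies on chromosome 4 at 53030789 to 53159988 (Entrez 11303). It had 605, 787 and 732 CPM with verapamil, and 638 and 1130 CPM in controls. Control replicate 3 stood above all other libraries, while control replicate 1 lay among the verapamil libraries. The log2 fold change was -0.32 (SE 0.247, edgeR adjusted p = 0.363). Without control replicate 1 it was -0.67 (adjusted p = 0.00295), and without control replicate 3 it was 0.15 (adjusted p = 0.326), so the direction rested on which control was used. In these fits 1 control remained, and the p-values hold no spread between controls.

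Abcg1, the pump that moves cholesterol to mature lipoproteins, lies on chromosome 17 at 31057694 to 31117984 (Entrez 11307). It had 261, 271 and 246 CPM with verapamil, and 206 and 197 CPM in controls. All verapamil libraries lay above both controls, by 1.29-fold (log2 0.37, SE 0.0952, edgeR adjusted p = 0.0368). The call was lost with upper quartile scaling (adjusted p = 0.137), a higher filter on low counts (0.0545) and a replicate block (0.24), without verapamil replicate 1, 2 or 3 (0.151, 0.189 and 0.127), and with a length trend removed (log2 0.14, adjusted p = 0.437).

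**Figure D1:**
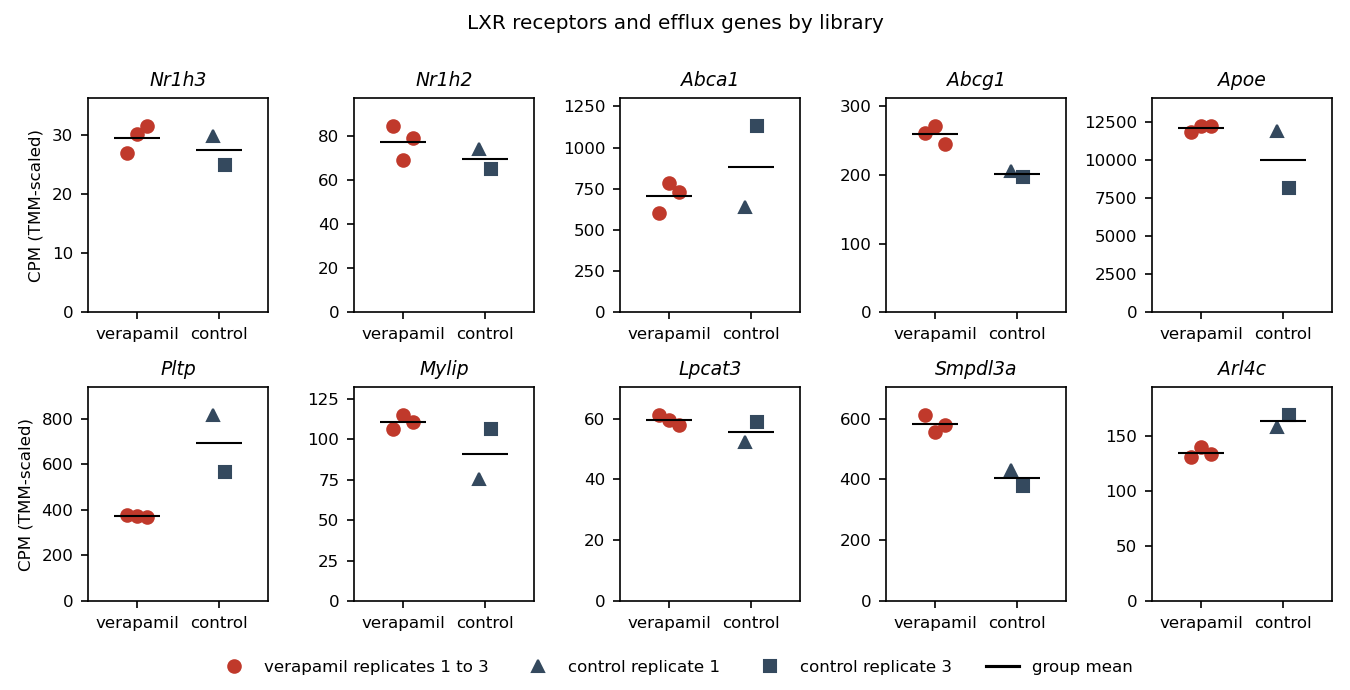
Level of each gene in every library in CPM (linear axes from 0), with the 3 verapamil libraries on the left and the 2 control libraries on the right of each panel, and lines at the group means. Pltp separates the groups most, and in Abca1 the control libraries stand at 638 and 1130 CPM on either side of most verapamil values.

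Apoe, the apolipoprotein that accepts cholesterol from these pumps, was by far the most abundant of the 10 genes and ranked 7 or 8 among all genes in every library. It lies on chromosome 7 at 19696244 to 19701310 (Entrez 11816). Its levels were 11870, 12230 and 12230 CPM with verapamil, and 11940 and 8136 CPM in controls. The low value belonged to control replicate 3, and control replicate 1 overlapped the verapamil libraries. The log2 fold change was 0.27 (SE 0.17, edgeR adjusted p = 0.273), or 0.58 without control replicate 1 (adjusted p = 0.000376) and 0.02 without control replicate 3 (adjusted p = 0.836).

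Pltp, which transfers phospholipid between lipoproteins, showed the largest change of the 10. It lies on chromosome 2 at 164839518 to 164857708 (Entrez 18830). It had 378, 374 and 368 CPM with verapamil, and 816 and 568 CPM in controls. The 3 verapamil libraries were within a coefficient of variation of 1.42%, and both controls stood above them (25.3%). Pltp fell to 374 ± 5.32 CPM with verapamil (SD, n = 3), against 692 ± 175 CPM in controls (SD, n = 2; log2 -0.89, SE 0.157, edgeR adjusted p = 0.0103). With verapamil replicate 1 or 3 left out, Pltp narrowly missed the threshold (adjusted p = 0.0546 and 0.0541). Of the Pltp exon bases, 19.3% are shared with Ctsa, a lysosomal protease gene on the opposite strand, and strand use in the counting is not stated, so reads from those bases cannot be assigned. Ctsa had 1131 ± 42 CPM with verapamil and 1190 ± 212 CPM in controls (log2 -0.07, edgeR adjusted p = 0.693).

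Mylip (Entrez 218203, chromosome 13 at 45389742 to 45411940) marks lipoprotein receptors for breakdown. It had 106, 115 and 111 CPM with verapamil, and 75.6 and 106 CPM in controls. The highest control almost touched the lowest verapamil library, and the gene did not pass (log2 0.28, SE 0.157, edgeR adjusted p = 0.225). Without control replicate 3 the log2 fold change was 0.55 (adjusted p = 0.000418), and without control replicate 1 it was 0.06 (adjusted p = 0.573).

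Lpcat3, which builds polyunsaturated chains into membrane phospholipid, had 61.1, 59.6 and 57.8 CPM with verapamil, and 52.4 and 58.8 CPM in controls. The groups overlapped (log2 0.10, SE 0.103, edgeR adjusted p = 0.498). Lpcat3 (Entrez 14792) lies on chromosome 6 at 124663094 to 124704716, where Emg1, on the opposite strand, covers 10.2% of its exon bases. Emg1 had a log2 fold change of -0.19 (edgeR adjusted p = 0.529).

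Smpdl3a, a relative of acid sphingomyelinase known as an LXR target in human macrophages, rose. It lies on chromosome 10 at 57794544 to 57811830 (Entrez 57319). It had 611.5, 555 and 578 CPM with verapamil, and 432 and 379 CPM in controls. No verapamil library overlapped a control. The rise was 1.43-fold (log2 0.52, SE 0.106, edgeR adjusted p = 0.0167). Smpdl3a missed the threshold with verapamil replicate 1, 2 or 3 left out (adjusted p = 0.0918, 0.0706 and 0.0904) and with upper quartile scaling (0.0674).

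Arl4c, a small GTPase known to take part in cholesterol export through Abca1, went the other way without passing. It had 131, 140.3 and 134 CPM with verapamil, and 159 and 169 CPM in controls. Both controls stood above all verapamil libraries, and the spread within each group was under 5% of its mean (3.59% and 4.59%). The log2 fold change was -0.28 (SE 0.0925, edgeR adjusted p = 0.0718). Leaving out control replicate 1 gave a log2 fold change of -0.32, and leaving out control replicate 3 gave -0.23, each with 1 control remaining. Arl4c was not called with verapamil replicate 1, 2 or 3 left out (edgeR adjusted p = 0.241, 0.202 and 0.264). The replicate block (0.2675), no filter (0.118) and DESeq2's Wald test (0.107) gave no call either. It was called lower with upper quartile scaling (0.0196), a minimum count of 50 (0.0442) and a length trend removed (0.0043). Arl4c (Entrez 320982) lies on chromosome 1 at 88698225 to 88702191.

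For 5 of the 10 genes the groups did not overlap, with verapamil above in 3 (Abcg1, Mylip and Smpdl3a) and below in 2 (Pltp and Arl4c). Among all tested genes 56.7% had groups that did not overlap, so this count too was near the background. The controls were the more variable group in 8 of the 10 genes. The largest coefficient of variation was 13.2% with verapamil and 39.4% in controls, both for Abca1.

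**Figure D2:**
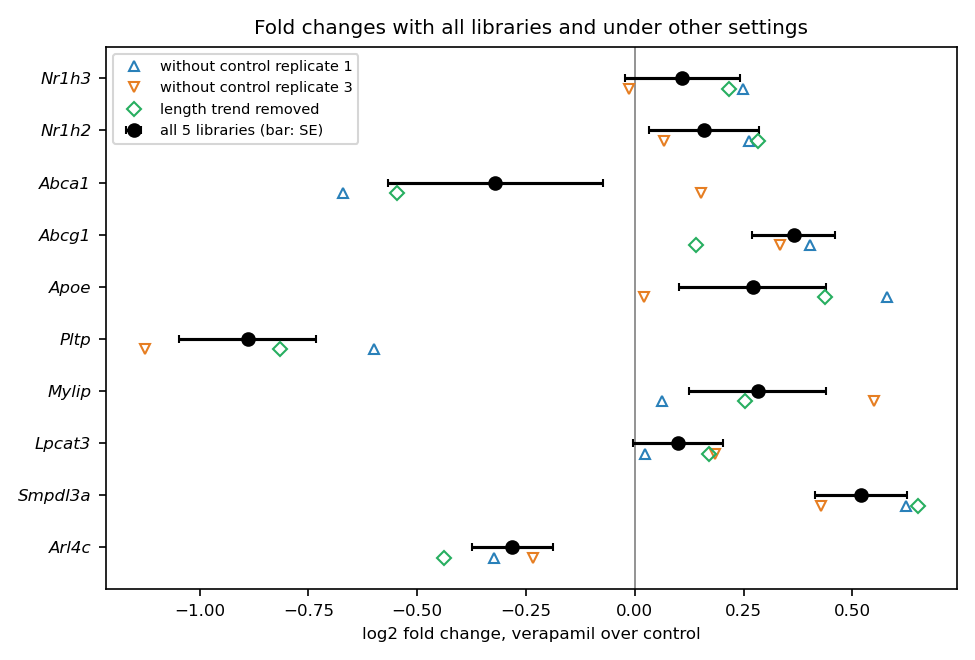
Log2 fold change of each gene, verapamil over control, with all 5 libraries (filled circles, bars are SE) and under 3 other settings (open symbols). Pltp and Arl4c stay below 0 and Smpdl3a and Abcg1 above 0 in the settings drawn, whereas Abca1 lies at -0.67 without control replicate 1 and at 0.15 without control replicate 3.

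The difference between the controls ran with the length of the gene. Exon length was the union of exons over the GENCODE basic coding transcripts of a gene. All tested genes with a known length were split into quintiles of length. The median log2 ratio of control replicate 3 to control replicate 1 was -0.44 in the shortest quintile (up to 1.89 kb). It was -0.09, 0.10 and 0.27 in the next ones, and 0.50 in the longest (from 5.53 kb). The median log2 fold change of verapamil over control was -0.26 in the shortest quintile and 0.22 in the longest. Abca1, with 10.3 kb the longest of the 10, was 1.77-fold higher in control replicate 3 than in control replicate 1, and Apoe, with 1.84 kb the shortest, was at 0.681 times its level there. Mylip (3.23 kb) had a ratio of 1.41, Pltp (2.35 kb) of 0.696 and Abcg1 (6.83 kb) of 0.957.

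An alternative fit that removed the length trend of each library, added after the data were seen, gave other calls. Abca1 was then lower (log2 -0.55, edgeR adjusted p = 0.00542) and Arl4c lower (-0.44, adjusted p = 0.0043). Apoe (0.44, adjusted p = 0.0164) and Nr1h2 (0.28, adjusted p = 0.0325) were called higher. Pltp (-0.82) and Smpdl3a (0.65) kept their calls (adjusted p = 0.00177 and 0.000333), and these 2 genes were also called with the replicate block. In that fit 3 of the 10 were higher and 3 lower, while 17.4% of all tested genes were called higher and 20.9% lower.

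**Figure D3:**
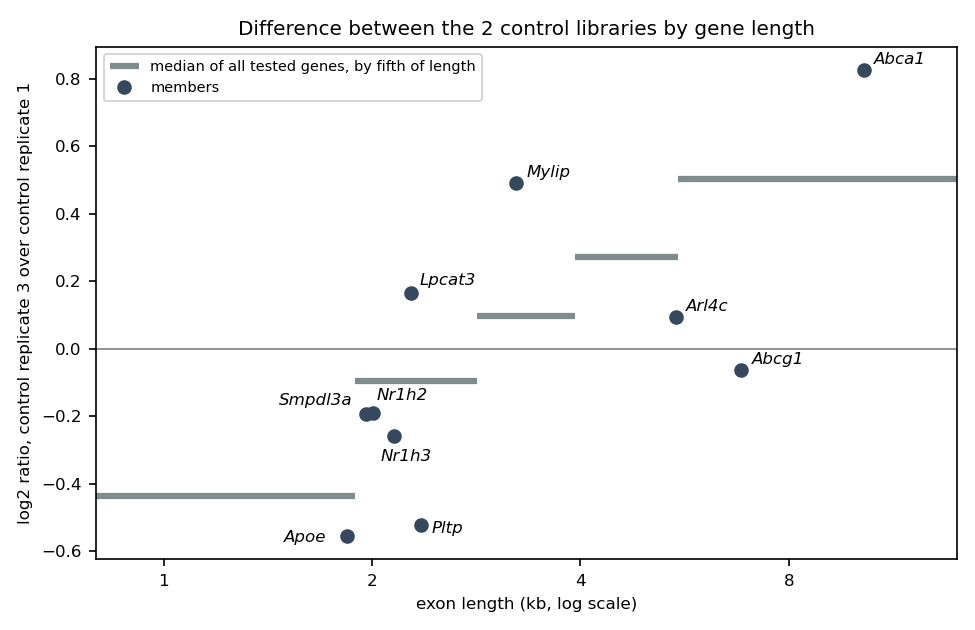
Log2 ratio of control replicate 3 to control replicate 1 against exon length (kb, log scale, axis ending within the longest quintile). Bars give the median of all tested genes in each quintile of length, from -0.44 to 0.50, and points the 10 genes, with Abca1 at the upper right and Apoe and Pltp at the bottom.

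Levels of different genes were compared as CPM per kb of exon. With verapamil the order was Apoe (6589 ± 114), Smpdl3a (296.5 ± 14.5), Pltp (159 ± 2.26), Abca1 (69.0 ± 9.08), Nr1h2 (38.7 ± 3.92), Abcg1 (38.0 ± 1.88), Mylip (34.2 ± 1.33), Lpcat3 (26.1 ± 0.739), Arl4c (24.6 ± 0.884) and Nr1h3 (13.8 ± 1.1; SD, n = 3). Values of Nr1h2 overlapped with those of Abcg1 and of Mylip, and those of Lpcat3 with Arl4c, while the other neighbours in the order did not overlap. In controls the first place was Apoe (5462 ± 1464) and the last Nr1h3 (12.8 ± 1.6; SD, n = 2). Pltp (294 ± 74.4) stood above Smpdl3a (207 ± 19.4) in controls, the reverse of their order with verapamil. Control levels of Arl4c (29.9 ± 1.37), Abcg1 (29.5 ± 0.922) and Mylip (28.1 ± 6.71) overlapped one another, and Mylip overlapped with Lpcat3 (24.4 ± 1.98).

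Companion genes of the pathway were taken from lists chosen for their role, with earlier results of these data known. For that reason the comparison is not an independent test. Their edgeR counts are set beside the 9.99% of all tested genes called higher and the 15.4% called lower. DESeq2's Wald test called 1588 genes higher and 1816 lower over 16595 genes. No share of all genes was taken at an unadjusted p under 0.05, so counts at that level have no background. Of RXR partners and coregulators of LXR, 2 of 14 tested were called higher and 0 lower in edgeR (3 and 0 at an unadjusted p under 0.05, and 3 and 0 by DESeq2's Wald test), with a median log2 fold change of 0.22. Rxra, the main RXR of macrophages, had 235, 255.5 and 249.8 CPM with verapamil, and 167.5 and 181 CPM in controls (log2 0.50, SE 0.0969, edgeR adjusted p = 0.0139). Tbl1xr1, a subunit of the corepressor complex, rose by 0.50 (edgeR adjusted p = 0.0112). Both missed the threshold with verapamil replicate 1, 2 or 3 left out (Rxra adjusted p = 0.0623, 0.0878 and 0.0898, Tbl1xr1 0.0708, 0.0745 and 0.0818). That of Rxra was lost with the replicate block (0.0671) and that of Tbl1xr1 with the length trend removed (log2 0.25, adjusted p = 0.166). Without control replicate 3 the count called higher was 9, in a fit that called 31% of all tested genes higher and 29.8% lower.

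Enzymes that make or remove LXR ligands moved in both directions. Of 7 tested, 2 were called higher and 3 lower, against 9.99% and 15.4% of all tested genes. Dhcr7, which reduces 7-dehydrocholesterol, had 84.3, 80.4 and 78.8 CPM with verapamil, and 34.6 and 31.1 CPM in controls (log2 1.30, SE 0.107, edgeR adjusted p = 0.000865). Cyp27a1, which makes 27-hydroxycholesterol, fell to 36.7 ± 2.12 CPM with verapamil, against 56.2 ± 0.525 CPM in controls (log2 -0.62, edgeR adjusted p = 0.00873), and was not called without verapamil replicate 1 or 3 (0.0509 and 0.0639).

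The other enzymes of this list were weakly expressed. Ch25h, the cholesterol 25-hydroxylase, had 14, 14 and 14 counts with verapamil, and 33 and 43 in controls (log2 -1.24, edgeR adjusted p = 0.0173). Cyp7b1, which clears 25- and 27-hydroxycholesterol, had 7, 8 and 10 counts with verapamil, and 23 and 24 in controls (log2 -1.29, edgeR adjusted p = 0.0278). Both missed the threshold with any verapamil library left out (adjusted p = 0.065 to 0.0999) and by DESeq2's Wald test (0.0584 for Ch25h and 0.13 for Cyp7b1). Cyp7b1 was also lost without control replicate 1 (0.0585) and with the replicate block (0.0598). Cyp46a1, Cyp39a1 and Sult2b1 did not pass the filter on low counts, and Cyp11a1 had no count in any library.

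Other LXR targets moved in both directions. Of 16 tested, 7 were called higher and 5 lower, against 9.99% and 15.4% of all tested genes, with a median log2 fold change of 0.14. The genes of fatty acid synthesis and desaturation were among those higher: Scd2 rose by 1.95 (SE 0.112), Fasn by 1.92 (SE 0.149) and Scd1 by 1.23 (SE 0.145; edgeR adjusted p = 0.000437, 0.000743 and 0.00255). These are also targets of SREBP factors. Scd2 had 549, 562 and 552 CPM with verapamil, and 132 and 155 CPM in controls. Srebf1 itself, of which 1 promoter is printed above, had 75.2 ± 2.02 CPM with verapamil and 60.1 ± 0.141 CPM in controls (log2 0.32, edgeR adjusted p = 0.0474). Its call was lost in 8 of 12 alternative fits, which included those without verapamil replicate 1, 2 or 3 (adjusted p = 0.186, 0.179 and 0.203).

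Among the targets that fell, Lpl, the lipoprotein lipase, had 583.5, 612 and 673 CPM with verapamil, and 1913 and 1261 CPM in controls (log2 -1.35, SE 0.182, edgeR adjusted p = 0.00398). Apoc1, of the cluster that also holds Apoe, had 8, 8 and 8 counts with verapamil, and 48 and 29 in controls (log2 -2.07, edgeR adjusted p = 0.00947). The fold change of Apoc1 rests on these few reads.

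Genes of cholesterol uptake, storage and release gave 10 of 20 tested called higher and 2 lower, against 9.99% and 15.4% of all tested genes, with a median log2 fold change of 0.57 against -0.01 over all genes. Stard4, a sterol carrier, rose by 1.53 and Lrp8, a lipoprotein receptor that Mylip is known to remove, by 1.29 (edgeR adjusted p = 0.0015 and 0.00155). Soat1, which esterifies cholesterol for storage, had 734, 811 and 789 CPM with verapamil, and 366 and 395 CPM in controls (log2 1.03, edgeR adjusted p = 0.0014). Msr1, a scavenger receptor, fell by 0.72 (adjusted p = 0.00928, and 0.0544 without verapamil replicate 1). Vldlr, a lipoprotein receptor also known to be removed by Mylip, fell by 0.71 (adjusted p = 0.0198), a call lost without verapamil replicate 1, 2 or 3 (0.0788, 0.0562 and 0.0885).

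Close relatives of the 10 genes, such as other ABCA and ABCG pumps and lysophospholipid acyltransferases, gave 0 of 18 called higher and 4 lower in edgeR, near the 25.4% of all tested genes called in either direction, with a median log2 fold change of -0.26. At an unadjusted p under 0.05 these counts were 3 and 6, with no all-gene share to set beside them. By DESeq2's Wald test they were 2 and 4, where 1588 of 16595 genes were called higher and 1816 lower. Lpcat4 fell by 1.31 (edgeR adjusted p = 0.00732). Abcg3 fell by 1.2 (adjusted p = 0.0043) and Abca9 by 0.97 (adjusted p = 0.0327). Abca9 had 14.4, 16.9 and 17.4 CPM with verapamil, and 23.0 and 40.9 CPM in controls, and with verapamil replicate 1, 2 or 3 left out it missed the threshold (adjusted p = 0.123, 0.0969 and 0.0931). Without control replicate 1 it fell by 1.33, and without control replicate 3 it fell by 0.50.

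**Figure D4:**
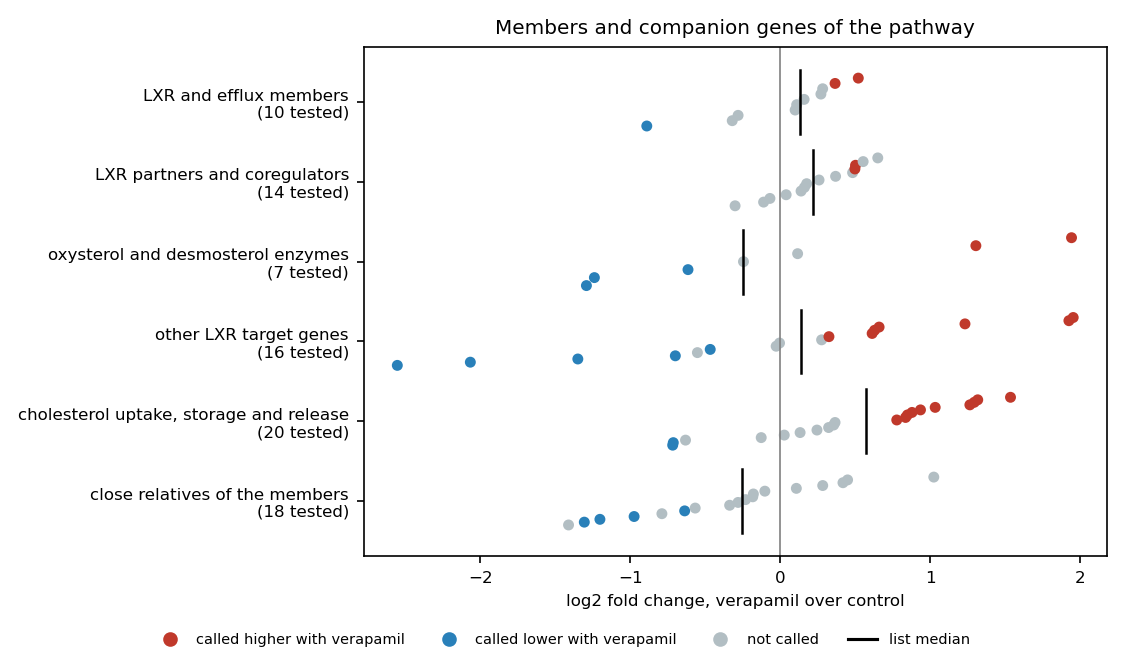
Log2 fold change, verapamil over control, of every tested gene in the 10-gene set and in each companion list, coloured by its call, with a line at each list's median. The 10 genes lie between -0.89 and 0.52, and the medians of the other targets and of the uptake genes are 0.14 and 0.57.

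Markers of cell types moved along with these results. Over all tested genes 15.4% were called lower and 9.99% higher, beside which the marker counts stand. Of 10 osteoclast markers, 7 were lower with verapamil and 1 higher, with summed levels of 3304 to 3454 CPM with verapamil and 7025 to 7703 CPM in controls. Of 12 macrophage markers, 7 were lower and 0 higher in edgeR, at 5204 to 5282 CPM with verapamil and 7552 to 8075 CPM in controls. No marker of the list was at 0. DESeq2 also called 7 lower and 0 higher, where it called 1816 of 16595 genes lower and 1588 higher. At an unadjusted p under 0.05 the counts were 8 and 0, with no all-gene share to set beside them. Stromal markers were lower in 8 of 9 tested (519 to 544 CPM with verapamil, 1270 to 1455 CPM in controls). Of 6 tested dendritic cell markers 5 were lower and 1 higher (132 to 137 CPM with verapamil, 136 to 168 CPM in controls). The 1 higher was Itgax, at 122 CPM with verapamil and 57.6 CPM in controls, so it made up most of the sums with verapamil. Cd74, among the 5 lower, was at 5.94 CPM with verapamil and 61.2 CPM in controls. Fewer cells of a type and less RNA per cell cannot be told apart in such bulk samples, and the part of these shifts in the results on Pltp, Lpl, Abcg1 and Smpdl3a was not tested. Of the adipocyte list, whose cells also use LXR, Adipoq, Plin1, Cidec and Retn lay below 0.1 CPM in both group means, while Fabp4, which macrophages also express, was at 274 ± 24.6 CPM with verapamil and 118 ± 41.5 CPM in controls (log2 1.22).

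Genes most like Abca1 and Nr1h3 over the 5 libraries were picked by the smallest root mean square difference of centred log2 CPM among 6309 genes at or above median expression. For Abca1 they were Samd9l, Slc4a7, Pitpnc1, Samd4 and Actn1, with differences of 0.0217 to 0.0721. Each of these was higher in control replicate 3 than in control replicate 1, as Samd9l with 68.7 and 39.0 CPM. Each also missed the test between groups (edgeR adjusted p from 0.264 to 0.53). Both traits follow from picking genes by the pattern of Abca1 in these same 5 libraries, and are no separate result. For Nr1h3 they were Rabggta, Tmed5, Rbm47, Ifrd1 and Ufd1, with differences of 0.0383 to 0.0514.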

How the data were processed

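RNA-seq libraries of verapamil-treated and control mouse osteoclasts were compared. The authors deposited estimated counts of reads per gene, 1 column a library, with 2 decimals and, judged from the values, no normalization. Of the upstream steps, the submitters' processing notes give only the builds GRCm38 and mm10. The aligner, counter, annotation and strand use were not given in the sources used here. Libraries were made from total RNA with a SMARTER mRNA kit, per the labels' protocols. Labels name 3 libraries a group, and the table used here holds 3 verapamil and 2 control libraries.

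Rounded counts were analysed in R 4.3.3 with edgeR 4.0.16, which applied TMM scaling and its default filter (minimum count 10, minimum total 15) before a quasi-likelihood fit on group alone, with 3 residual and 3.28 prior degrees of freedom. Calls used a Benjamini-Hochberg adjusted p under 0.05 over 12619 genes. Standard errors were obtained from each log2 fold change and its F statistic, and so restate that test. Alternatives were RLE and upper quartile factors, DESeq2 1.42.0, no filter, a minimum count of 50, each library left out, a replicate block, and, added after seeing the data, removal of each library's trend with exon length by lowess. Exon lengths came from GENCODE M21 (95.7% of genes matched by Entrez identifier) and positions from RefSeq on GRCm38.p6, with Python 3.11.15.

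The members and lists were chosen with earlier results of these data known. Companion genes were named by rule: up to 3 called genes of largest change in each direction of a list, and 8 fixed genes, of which some are not reported here. Srebf2, Ctsa, Emg1 and Fabp4 were named outside this rule, for their position or role. Differences between libraries of a group exceeded counting noise, with a median chi-square of 2.12 to 4.08 times that of counting noise between verapamil libraries and 35.1 times between controls.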

Additional observations from a re-analysis of the deposited data

How the results depend on the processing

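With 5 libraries, 2 of them controls that differ from each other, most calls near the threshold moved with the settings. Leaving out a library gave 440 to 3983 genes higher and 1009 to 3825 lower (1261 and 1939 with all 5), and removing the length trend gave 2199 higher and 2633 lower. All fits with a library left out have fewer degrees of freedom, and those without a control also hold no spread between controls. Upper quartile factors moved the all-gene median of the log2 fold changes by -0.12.

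Among the 10 genes, 0 to 3 were called higher and 0 to 3 lower with a library left out. Upper quartile factors called 0 higher and 2 lower, a minimum count of 50 called 1 and 2, the replicate block 1 higher, and the length correction 3 lower. Log2 fold changes with a library left out ran from -0.67 to 0.15 for Abca1, 0.33 to 0.40 for Abcg1, 0.062 to 0.55 for Mylip, -0.013 to 0.25 for Nr1h3, 0.021 to 0.58 for Apoe, -1.13 to -0.60 for Pltp, 0.43 to 0.62 for Smpdl3a and -0.32 to -0.23 for Arl4c, and from -0.14 to 0.083 for the log2 ratio of the receptors. Under upper quartile factors Nr1h3 (-0.016) and Lpcat3 (-0.018) turned below 0, and relative to the shift of all genes both were at 0.10. The same factors gave 0.24 for Abcg1 and 0.40 for Smpdl3a, which lost their calls, and -0.40 for Arl4c, which gained one. Relative to the shift these were 0.36, 0.52 and -0.28. A minimum count of 50 gave 0.32 for Abcg1 (not called) and -0.33 for Arl4c (called). The length correction gave -0.55 for Abca1, 0.14 for Abcg1, 0.28 for Nr1h2, 0.44 for Apoe and -0.44 for Arl4c. The cause of these moves was not tested.

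In the companion lists the counts with a library left out were 0 to 9 higher and 0 to 1 lower for RXR partners and coregulators, 0 to 4 lower for oxysterol and desmosterol enzymes, 4 to 8 higher and 3 to 7 lower for other LXR targets, 0 to 3 lower for uptake and storage genes, and 0 to 3 higher and 3 to 7 lower for close relatives. The length correction gave 4 higher and 1 lower for the partners, and 3 higher and 7 lower for the relatives. DESeq2 called 1 oxysterol enzyme lower and 2 relatives higher. A minimum count of 50 left 1 oxysterol enzyme and 3 other targets lower. RLE factors and the replicate block each called 1 relative higher.

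The samples share replicate numbers, and the series speaks of pairs without saying what a pair shares. Deviations from the group mean correlated by 0.289 between the libraries numbered 1 and by 0.0224 between those numbered 3. The unmatched verapamil replicate 2 and control replicate 3 also gave 0.289, and verapamil replicate 2 with control replicate 1 gave -0.289. With 2 controls, their deviations mirror each other, so these values cannot show whether the numbers mark pairs. With the replicate number as a block, which leaves 1 residual degree of freedom, Abcg1 had a log2 fold change of 0.33 and was not called (adjusted p = 0.24), and Pltp and Smpdl3a were.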
